A study of Mus musculus with 6 samples.

Results

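Transcripts of 5 genes of the Notch pathway, the receptors Notch1, Notch2 and Notch4, the ligand Jag1 and the target gene Hes1, were followed in the cell line MLE-15. It derives from lung epithelium of mice that carried SV40 large T antigen under the human surfactant protein C promoter. They were taken from the 909 named genes of an array experiment with 6 arrays, 3 of PMA-treated cells and 3 of control cells. PMA is a phorbol ester and an activator of protein kinase C. The series text gives 10 nM for 24 h for PMA and calls the other cells untreated, and the labels do not say whether the controls received a vehicle. Both groups carry the replicate numbers 1, 2 and 3. In the titles number 1 is MLE-15PMA or MLE-15CTL, while numbers 2 and 3 are spelled MLE15 and end in A or B. Nothing in the labels says what that naming or a shared number stands for, or that replicates were separate cultures. The p-values therefore reflect the spread among these arrays alone, and that spread may be technical. The genes were matched through the RefSeq accession in the name of the probe set, and where a gene had several probe sets probe sets were selected on the highest mean over the 6 arrays. Each of the 5 genes had 1 probe set, so that mean decided nothing here. The genes themselves were picked with both their PMA differences and their differences between replicate numbers known, so what follows describes them and is not independent evidence.

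Notch receptors are single-pass membrane proteins that are cut when a Jagged or Delta ligand on a neighbouring cell pulls on them. The freed intracellular part enters the nucleus, joins the DNA-binding protein Rbpj and turns on genes such as Hes1, a basic helix-loop-helix repressor. In the airway the pathway is known for steering epithelial progenitors between secretory and ciliated fates. The receptors carry O-linked sugars on their EGF-like repeats, and Fringe enzymes lengthen these sugars and so tune which ligand the receptor answers.

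Promoter windows of 3 of the genes are printed because their transcripts behaved in different ways on the arrays. Notch2 was higher and Jag1 lower in the number 1 arrays, and Notch4 had the largest PMA difference of the 5. That Notch4 difference, 0.14, did not pass by limma (adjusted p = 0.999). It came from number 1 alone, at 0.43 against -0.023 and 0.017 in numbers 2 and 3. The windows run from 250 bases before to 30 bases after the annotated start and come from RefSeq on GRCm38.p6, which had a window for 4 of the 5 genes. They are chr3:98013288-98013567 on the plus strand for Notch2, chr17:34564045-34564324 on the plus strand for Notch4 and chr2:137116491-137116770 on the minus strand for Jag1. Capitals mark every match, on either strand, to GTGGGAA (bound by Rbpj), TGANTCA (bound by AP-1, a factor that phorbol esters activate), CACNAG (the N box) or CACGNG (the class C site), of which the last 2 are bound by Hes1.
Notch2: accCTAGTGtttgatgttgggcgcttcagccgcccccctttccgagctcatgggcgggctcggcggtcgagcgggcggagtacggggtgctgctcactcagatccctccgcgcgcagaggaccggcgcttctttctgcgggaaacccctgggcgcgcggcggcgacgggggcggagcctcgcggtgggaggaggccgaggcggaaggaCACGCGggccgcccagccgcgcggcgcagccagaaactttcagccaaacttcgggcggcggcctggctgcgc
Notch4: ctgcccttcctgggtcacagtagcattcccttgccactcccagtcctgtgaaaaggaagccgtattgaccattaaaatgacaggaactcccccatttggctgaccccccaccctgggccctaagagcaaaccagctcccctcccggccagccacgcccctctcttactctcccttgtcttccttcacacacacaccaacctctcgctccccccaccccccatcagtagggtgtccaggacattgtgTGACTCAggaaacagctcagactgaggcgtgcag
Jag1: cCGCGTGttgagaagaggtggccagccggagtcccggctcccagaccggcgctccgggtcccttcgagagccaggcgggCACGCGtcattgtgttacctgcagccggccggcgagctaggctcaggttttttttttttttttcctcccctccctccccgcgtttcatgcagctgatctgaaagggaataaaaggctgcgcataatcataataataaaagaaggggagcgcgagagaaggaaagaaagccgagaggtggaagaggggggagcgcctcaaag

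The Notch4 window held TGACTCA, starting 4 bases before the start site, and TGANTCA occurred in 7.46% of the 32851 RefSeq windows of this length. The Notch2 window held a class C match 42 bases before the start and an N box match 247 bases before it. Jag1 had class C matches 171 and 249 bases before its start. Notch1, whose window chr2:26503793-26504072 on the minus strand is not printed, held N box matches 108, 3 and 1 bases before its start, of which the last pair overlap. GTGGGAA was in none of the 4 windows and in 5.94% of all windows, while CACNAG was in 40.2% and CACGNG in 26.1%. CACNAG and CACGNG share the spelling CACGAG, which fell in 6.07% of all windows. These matches are letters and not sites, and no link between them and the array values was tested. The Notch2 window was 72.5% G and C with 38 CpG, Notch1 66.8% with 19, Notch4 58.2% with 5 and Jag1 57.9% with 21, against medians of 52.5% and 6 over all windows.

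Levels below are RMA values on the log2 scale, in which 1 unit is a factor of 2, and levels of different genes are not ranked because each probe set binds with its own strength. Over all 1246 probe sets the number 1 arrays of both groups stood apart from the other 4, and 41.7% of probe sets differed between number 1 and numbers 2 and 3 by limma with Benjamini-Hochberg adjustment at 0.05. Each PMA result is therefore also given within the numbers and without number 1. Array medians lay between 5.64 and 5.71. The lung epithelial identity could be checked on few markers, since 2 of 15 listed ones were measured: Sftpd, a lung collectin, lay between 5.28 and 5.50, and Sftpa1, a surfactant protein, between 3.29 and 3.89, under the lower quartile of every array (4.32 to 4.43).

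Notch1, a receptor used in most tissues, had values of 8.54, 7.53 and 7.25 in PMA arrays 1, 2 and 3, against 8.78, 7.29 and 7.26 in control arrays 1, 2 and 3. The number 1 array was the high one in each group, and the ranges of the groups overlapped. Notch1 averaged 7.77 ± 0.68 in PMA and 7.78 ± 0.87 in control arrays (SD, n = 3 each), a difference of -0.0040 log2 units (SE 0.54). Within the numbers the PMA minus control differences were -0.24, 0.24 and -0.012, so the direction was not shared.

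Notch2, the receptor most like Notch1 in structure, had 8.92, 7.50 and 7.30 in PMA arrays 1 to 3, against 9.06, 7.13 and 7.36 in control arrays 1 to 3. Number 1 was again the high array of each group, and PMA array 2 was above control array 2. The means were 7.91 ± 0.88 in PMA and 7.85 ± 1.053 in control arrays (SD, n = 3 each), which differed by 0.058 (SE 0.68). Its probe set carries the suffix s, so it can bind several transcripts. Within the numbers it differed by -0.14, 0.37 and -0.059.

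Notch4, a receptor best known from endothelial cells, was dim, with 4.43, 3.87 and 3.97 in PMA arrays 1 to 3 and 3.996, 3.89 and 3.95 in control arrays 1 to 3. PMA array 1 alone stood above the other 5, which lay close together, and the groups overlapped. Its means of 4.09 ± 0.30 in PMA and 3.95 ± 0.053 in control arrays (SD, n = 3 each) differed by 0.14 (SE 0.16). The whole difference came from number 1, where PMA was higher by 0.43, against -0.023 and 0.017 in numbers 2 and 3. Over numbers 2 and 3 alone the difference was -0.0029. This probe set also has the suffix s, and its mean lay under the lower quartile of all probe sets.

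Jag1, a membrane ligand of the receptors, had 8.47, 10.55 and 10.63 in PMA arrays 1 to 3, against 8.51, 10.38 and 10.72 in control arrays 1 to 3. Here number 1 was the low array of each group. The means were nearly equal, at 9.88 ± 1.22 in PMA and 9.87 ± 1.19 in control arrays (SD, n = 3 each), with a difference of 0.013 (SE 0.84). The differences within the numbers were -0.037, 0.17 and -0.097.

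Hes1, the transcriptional target, had 9.77, 9.99 and 9.61 in PMA arrays 1 to 3 and 9.78, 9.65 and 9.65 in control arrays 1 to 3. PMA array 2 was the highest of the 6, PMA array 3 the lowest, and number 1 did not stand apart. The means of 9.79 ± 0.19 in PMA and 9.69 ± 0.078 in control arrays (SD, n = 3 each) differed by 0.097 (SE 0.11). Number 2 gave a Hes1 difference of 0.35, while numbers 1 and 3 gave -0.017 and -0.037.

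**Figure D1:**
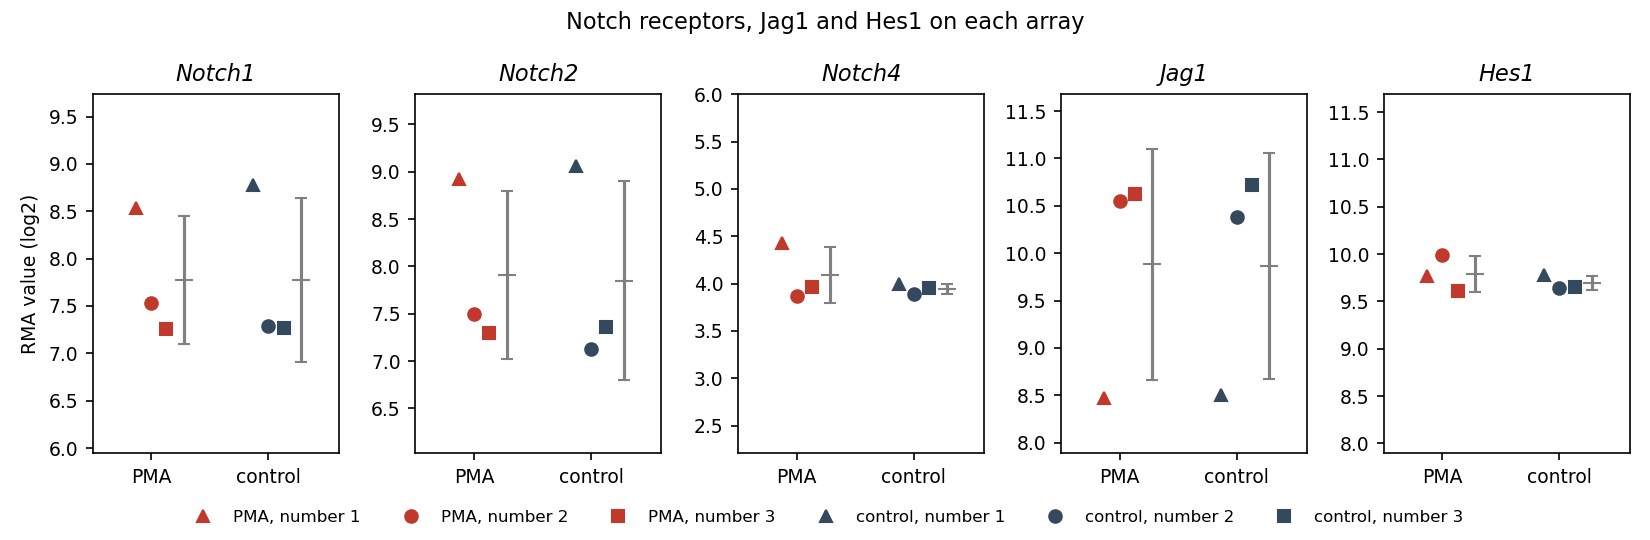
RMA values (log2) of Notch1, Notch2, Notch4, Jag1 and Hes1 on each of the 6 arrays, PMA in red and control in dark blue, with the symbol giving the replicate number and the grey bar the mean ± SD of 3 arrays; every panel spans the same number of log2 units. In both groups the number 1 triangle lies above the others for Notch1 and Notch2 and below them for Jag1, while for Notch4 only PMA array 1 is high.

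By limma over all 1246 probe sets, 0 of the 5 genes passed Benjamini-Hochberg adjustment for PMA against control (adjusted p = 0.999 for each), and 0 had an unadjusted p under 0.05. The shares over all probe sets were 0% called and 0.321% at an unadjusted p under 0.05. Blocking on the number, limma likewise called 0 of the 5 and 0% of all probe sets, with 0 of the 5 at an unadjusted p under 0.05, against 3.37% of all probe sets. None of the 5 was above control in all 3 numbers, or below it in all 3, which 10.4% and 12.7% of all probe sets were. In none of the 5 did the PMA arrays lie all above or all below the control arrays, which 1.61% and 1.77% of all probe sets did. The median difference of the 5 was 0.058, against 0.0033 over all probe sets, and 4 of the 5 had a higher mean with PMA, against 651 of 1246.

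Over numbers 2 and 3 alone the PMA difference was 0.12 for Notch1, 0.16 for Notch2, 0.037 for Jag1 and 0.15 for Hes1, beside the Notch4 value given above, and limma passed none of them.

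With the shared numbers taken as blocks, the fit bounds what these arrays leave room for if same-numbered arrays are pairs. For numbers 2 and 3 that pairing was not shown (a correlation of 0.041, described with the processing). The 95% interval of the PMA difference was -0.21 to 0.21 for Notch1, -0.17 to 0.28 for Notch2, -0.072 to 0.36 for Notch4, -0.16 to 0.18 for Jag1 and -0.10 to 0.29 for Hes1. As ratios of PMA to control these run from 0.862, the lower bound for Notch1, to 1.28, the upper bound for Notch4. In the fit without the block the interval of Jag1 ran from -2.10 to 2.12 and that of Notch2 from -1.64 to 1.76, since the distance of number 1 then counts as error.

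In number 2 alone Notch1, Notch2, Jag1 and Hes1 were all higher with PMA, as were 50.4% of all probe sets. Over all probe sets that pair had a median difference of 0.0017, and 95% of absolute differences were under 0.34. Notch2 at 0.37 and Hes1 at 0.35 were past that value, Notch1 at 0.24 and Jag1 at 0.17 within it. Number 1 had a 95th percentile of 0.33, which Notch4 passed at 0.43, and in number 3, with one of 0.20, none of the 5 did. Whether the PMA difference in number 1 differed from that in numbers 2 and 3 was tested with an interaction term in limma. Notch4 gave 0.43 (SE 0.13, unadjusted p = 0.0134, adjusted p = 0.668) and Notch1 -0.36 (SE 0.18, adjusted p = 0.743), and none of the 5 passed. Notch4 was the 1 of the 5 with an unadjusted p under 0.05, which 5.62% of all probe sets had. That term was called for 0.0803% of probe sets, which was the unnamed uc009kma.1_psr1_at alone.

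**Figure D2:**
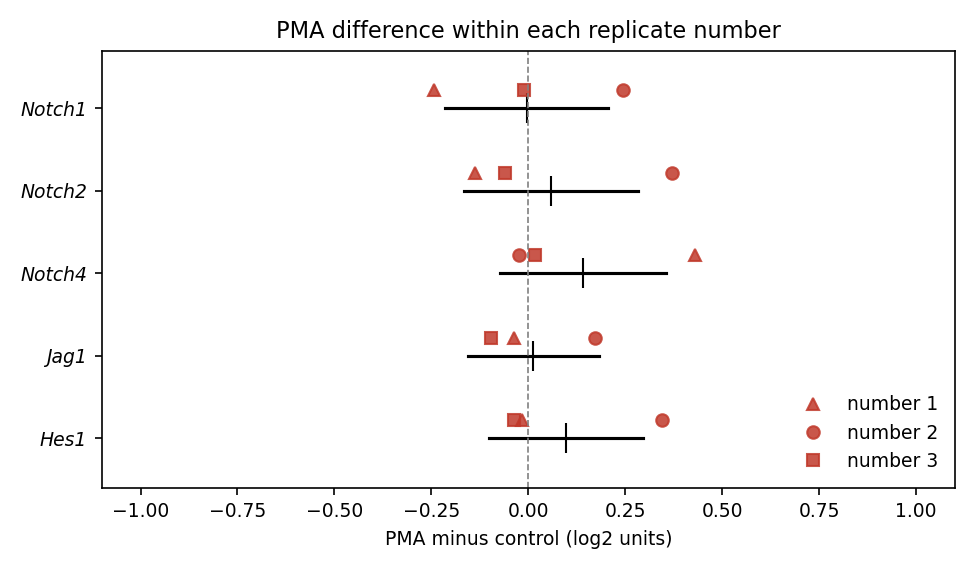
PMA minus control difference (log2 units) of the 5 genes, with red symbols for the pair of each replicate number, a vertical black tick for the mean of the 3 pairs and a black line for the 95% interval of the limma fit with the number as a block. All 5 intervals include 0, and the farthest symbols are Notch4 in number 1 at 0.43 and Notch2 in number 2 at 0.37.

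Notch1, Notch2 and Jag1 differed far more between the numbers than with PMA. Notch2 had a mean of 8.99 over the 2 arrays with number 1, against 7.32 over the 4 with numbers 2 and 3, so it was higher by 1.67 log2 units (SE 0.099), or 3.18-fold (95% interval 2.73 to 3.70). Notch1 averaged 8.66 in number 1 and 7.33 in numbers 2 and 3, 1.33 higher (SE 0.10) or 2.51-fold (2.14 to 2.93). Jag1 went the other way, with 8.49 in number 1 and 10.57 in numbers 2 and 3, a difference of -2.08 (SE 0.095), or 4.23-fold lower (95% interval of the ratio 0.204 to 0.274). Limma with PMA as a term gave adjusted p-values of 2.54e-07 for Notch2, 1.80e-06 for Notch1 and 3.31e-08 for Jag1. The number stands for 1 pair of arrays against 2 pairs, so these values compare these arrays only, and in RNA from whole cultures fewer cells of a kind and less RNA per cell cannot be told apart.

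Hes1 averaged 9.78 in number 1 and 9.73 in numbers 2 and 3, a difference of 0.049 (SE 0.10, limma adjusted p = 0.726) with a 95% interval of -0.18 to 0.28. Notch4 averaged 4.21 and 3.92, 0.29 higher in number 1 (SE 0.097, limma adjusted p = 0.0337). The Notch4 call rested on PMA array 1: without it the difference was 0.074 (adjusted p = 0.617). It was also lost without PMA array 2 (0.24, adjusted p = 0.0625), PMA array 3 (0.28, 0.0833) or control array 2 (0.31, 0.0759).

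Of the 5 genes, 3 rose and 1 fell in number 1 against numbers 2 and 3 by limma, where 27.5% of all probe sets rose and 14.1% fell. The number 1 arrays were both above the other 4 for 3 genes, against 37.8% of all probe sets, and both below for 1, against 18.1%. Differences of more than 2-fold were met by 3 of the 5 and by 9.23% of probe sets. The 5 were picked with these differences known, so an excess over the shares of all probe sets is not evidence about them. Ordered by size among all 1246, Jag1 was 36th, Notch2 51st and Notch1 76th. Among the 4 arrays of numbers 2 and 3 the whole range was 0.35 for Jag1, 0.37 for Notch2 and 0.28 for Notch1, so the distance of number 1 was several times that spread. Number 2 minus number 3 was -0.211 for Jag1, 0.19 for Hes1, 0.15 for Notch1, -0.080 for Notch4 and -0.011 for Notch2. The 95th percentile of absolute values over all probe sets was 0.208, which Jag1 alone of the 5 passed.

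The difference was present in each group by itself. Notch2 in number 1 minus the mean of numbers 2 and 3 was 1.52 in PMA and 1.81 in control arrays, and Notch1 gave 1.15 and 1.504. Jag1 gave -2.12 in PMA and -2.04 in control arrays. Notch4 gave 0.51 in PMA but 0.074 in control arrays, and Hes1 -0.036 and 0.13.

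**Figure D3:**
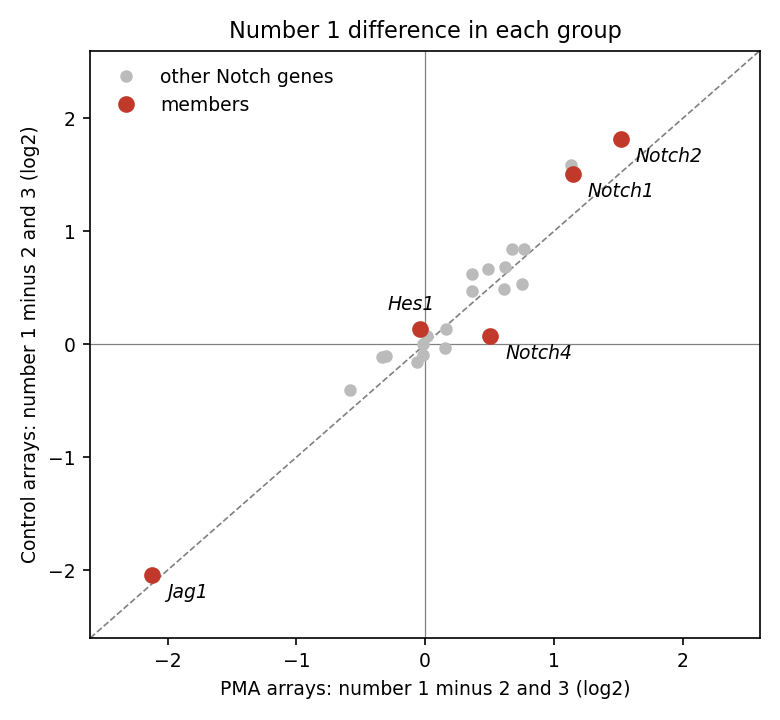
Number 1 minus the mean of numbers 2 and 3 (log2 units) in PMA arrays on the x axis and in control arrays on the y axis, with the 5 genes in red, the other measured Notch genes in grey and a dashed line of equal values. Jag1 lies near -2 on both axes and Notch1 and Notch2 above 1 on both, while Notch4 is displaced along the PMA axis only.

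The wider pathway was described with a list of 62 genes by role, of which 23 were measured, 18 of them outside the 5. For PMA, 0 of these 18 passed by limma with or without the block, and 8 had a higher and 10 a lower mean. The largest PMA differences outside the 5 were those of Itch, a ubiquitin ligase that acts on Notch, at 0.14 (SE 0.23), and Pofut1, which adds the O-fucose to the receptors, at 0.10 (SE 0.24). Itch was above control in all 3 numbers (0.22, 0.13 and 0.078), as were 10.4% of all probe sets. Pofut1 was above in number 2 only, by 0.48. Between the numbers 9 of the 18 rose and 1 fell in number 1, where 27.5% of all probe sets rose and 14.1% fell. Their median difference was 0.28, against 0.079 over all probe sets. The lists too were chosen with earlier results known.

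The measured receptor outside the 5 also rose in number 1, as did 27.5% of all probe sets. Notch3, a receptor known from smooth muscle and basal cells, averaged 4.58 in number 1 and 3.93 in numbers 2 and 3, 0.65 higher (SE 0.079, limma adjusted p = 6.00e-05). It was dim like Notch4, at 3.83 to 4.02 in numbers 2 and 3, under the lower quartile of every array (4.32 to 4.43). Among the 5 ligands the directions were mixed. Jag2, the other Jagged ligand, had 9.03 in PMA array 1 and 9.23 in control array 1, against 8.52 to 8.57 in the other 4, so it was higher by 0.58 (SE 0.071) where Jag1 was lower. Dll3, a ligand that does not activate the receptors in trans, was higher by 0.42 (SE 0.073). It too was dim, at 4.40 to 4.55 in numbers 2 and 3, close to those lower quartiles. The activating Delta ligands Dll1 and Dll4 differed by 0.047 and -0.11 and did not pass.

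Of 9 genes listed as targets 4 were measured, all of the Hes family, and 1 passed, against 41.7% of all probe sets. That was Hes6, and whether Notch signalling acts on Hes6 in these cells was not tested. Hes6, which hinders Hes1 in nerve cells, averaged 8.80 in number 1 and 7.998 in numbers 2 and 3, 0.80 higher (SE 0.077, limma adjusted p = 1.13e-05). Its other probe set gave 0.71, and the suffixes x and s mark both as able to bind other transcripts. Hes5 and Hes7, with Hes1 the other listed family members measured, differed by -0.0051 and 0.063. Rbpj, the DNA-binding partner, had 7.98 in PMA array 1 and 8.15 in control array 1, against 8.17 to 8.46 in the other 4, a difference of -0.22 (SE 0.095, limma adjusted p = 0.0841) that did not pass.

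Of the genes that cut or turn over the receptor, 4 of 20 were measured. Psen2, a catalytic subunit of gamma-secretase, was higher in number 1 by 0.64 (SE 0.074), and Itch by 0.55 (SE 0.071). Ncstn, the substrate-binding subunit of the same protease, fell by 0.49 on the log2 scale (limma adjusted p = 0.000583). Psenen, its smallest subunit, differed by 0.15 and did not pass.

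Of 10 listed enzymes that glycosylate the receptors 5 were measured, and 3 of these rose in number 1, against 27.5% of all probe sets. B4galt1, which adds galactose after Fringe has acted, averaged 11.12 in number 1 and 9.76 in numbers 2 and 3, 1.36 higher (SE 0.12, limma adjusted p = 5.90e-06). Rfng, the Radical fringe enzyme, was higher by 0.76 (SE 0.073) and Pofut1 by 0.49 (SE 0.12). Lfng, the Lunatic fringe enzyme, differed by -0.20 (SE 0.082, limma adjusted p = 0.0735) and Mfng, the Manic fringe enzyme, by -0.057, so neither passed.

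**Figure D4:**
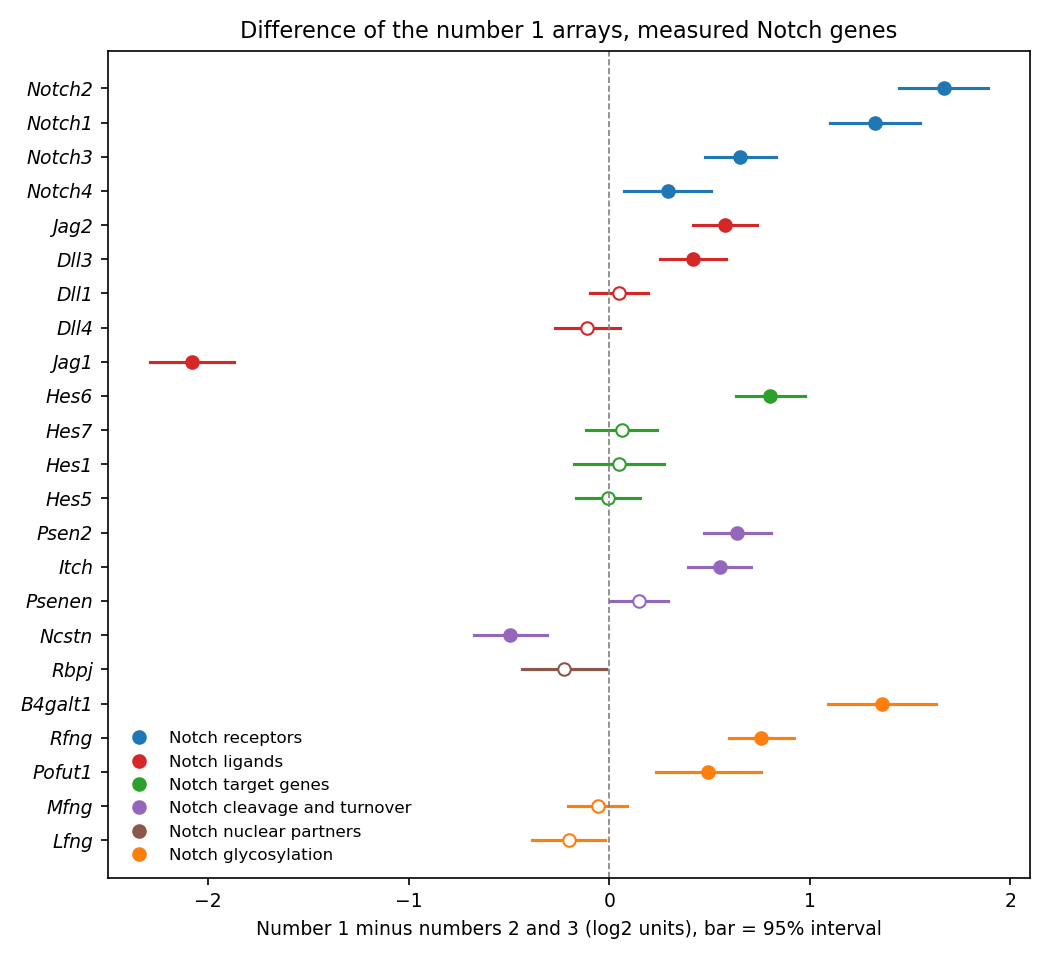
Number 1 minus numbers 2 and 3 (log2 units) for the 23 measured genes of the Notch lists, coloured by role, with 95% intervals from limma; filled points passed Benjamini-Hochberg adjustment over all 1246 probe sets. The 4 receptors lie right of 0 (Notch4, at 0.29, rests on PMA array 1), Jag1 lies at -2.08, left of all other genes shown, and Hes1 lies at 0.049.

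Some markers of other cell types differed with number 1, as did 41.7% of all probe sets. Of 3 measured endothelial markers 2 fell, Pecam1 by 1.37 and the selectin Sele by 1.13 on the log2 scale. The other, Icam2, differed by 0.061 and did not pass. The endothelial list's summed linear signal was 87.9 to 93.1 in number 1 against 164 to 174 in numbers 2 and 3. Of 5 fibroblast markers 1 rose, Pdgfrb at 0.78, and 2 did not pass. The other 2 fell, the proteoglycan Dcn at -2.31 and the adhesion molecule Vcam1 at -1.31. Fibroblast sums were 639 to 816 in number 1 against 1664 to 2849. Of 8 leukocyte markers 1 fell, the mannose receptor Mrc1 at -2.74, and 7 did not pass. Leukocyte sums were 236 to 263 in number 1 against 418 to 463. These linear sums weigh bright genes most. In numbers 2 and 3 the brightest of the endothelial list was Pecam1, of the fibroblast list Dcn and Vcam1, and of the leukocyte list Mrc1. The lower sums therefore do not show that any of these lists fell as a whole. The 2 lung epithelial markers summed to 58.6 to 60.1 in number 1 against 48.8 to 55.2, and Sftpa1 rose by 0.52 while Sftpd (0.13) did not pass. RMA gives no value of 0 and the table holds no background probe sets, so no marker could be called absent. The part of these markers in the differences of the Notch genes was not tested.

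Genes whose profile over the 6 arrays was most like that of each of the 5 were sought among the other 904 named genes, by the root mean square difference between profiles centred on their means. Nearest to Notch1 were B4galt1 at 0.046 log2 units (r = 0.998), the galactosyltransferase B4galt5 at 0.061 and the procollagen protease Bmp1 at 0.063. Nearest to Notch2 were the GM2 activator Gm2a at 0.066 (r = 0.997), the cytokine Il18 at 0.085 and the GM3 synthase St3gal5 at 0.087. Nearest to Jag1 were the Wnt receptor Fzd5 at 0.072 (r = 0.997), B3galt5, a galactosyltransferase, at 0.080 and the lysosomal enzyme Aga at 0.095. All these profiles are set by the distance of the number 1 arrays. The nearest to Notch4 were Ccl17 at 0.065, Ccl11 at 0.067 and Ggta1 at 0.069, and to Hes1 Lamp1 at 0.046, Atp6v0d1 at 0.064 and Ccl24 at 0.067. Notch4 and Hes1 varied little over the 6 arrays (SD 0.21 and 0.14), so small distances are easily met.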

How the data were processed

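Biotinylated cRNA from 6 samples was hybridised to Affymetrix arrays, per the labels' protocols. The deposited values are log2 values that the authors made with RMA, per the submitters' processing notes. No source used here gives the RMA version, the array's name or its annotation. Since RMA equalises the distributions of the arrays, a change common to all transcripts would be hidden. The table held 1246 probe sets, of which 963 were named through RefSeq accessions matched without versions to the gene table of GRCm38.p6, covering 909 genes. Signal over background is unknown, and the small number of arrays sets the precision.

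PMA was compared with control, and number 1 with numbers 2 and 3 with PMA as a term, with limma 3.58.1 in R 4.3.3 (lmFit, eBayes) on all probe sets, with Benjamini-Hochberg adjustment and a threshold of 0.05. SE is limma's moderated standard error. The fits were run on simulated data, where recovery was required only of the blocked and number 1 fits, at changes of 2-fold or more. The smaller PMA differences given above were not covered by that requirement. Deviations from the group means correlated across probe sets at 0.956, 0.815 and 0.912 between same-numbered arrays. These were over the 0.1 set for pairing, so the number was also fitted as a block. PMA 2 with control 3 gave 0.838 and PMA 3 with control 2 gave 0.886, so these values do not single out pairs within numbers 2 and 3. With number 1 set aside, PMA 2 minus PMA 3 and control 2 minus control 3 correlated at 0.041, under that 0.1. Pairing of numbers 2 and 3 was therefore not shown.

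The members and lists were chosen with earlier results of these data known. The genes named outside the 5 are the 3 of the Notch lists with the largest difference between numbers, the 2 with the largest PMA difference, the measured glycosylation enzymes and the 3 nearest profiles of each gene. Other Notch genes and markers are named as members of short lists, chosen after their values were seen. Alternatives were array centring on medians, leaving out dim probe sets, the mean of a gene's probe sets, an intensity trend, and leaving out arrays or numbers.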

Additional observations from a re-analysis of the deposited data

How the results depend on the processing

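For Notch1, Notch2 and Jag1 the difference of number 1 kept its direction and its call under every alternative run, from 1.15 to 1.504, 1.52 to 1.81 and -2.19 to -1.98. Notch4 did not pass with arrays centred on their medians (0.25, adjusted p = 0.0650) or with number 2 left out of both groups (0.25, 0.139), and ranged from 0.074 to 0.51 with single arrays left out (adjusted p = 0.00495 to 0.617 over all its alternatives); its probe set is not in the fit without dim probe sets. Hes1 ranged from -0.036 to 0.14 with single arrays left out and was -0.043 without number 3. No PMA difference of the 5 passed under any alternative (adjusted p = 0.964 at the lowest), and limma called 0 probe sets in each. With number 1 left out of both groups Notch1 was 0.12, Notch2 0.16, Notch4 -0.0029, Jag1 0.037 and Hes1 0.15. With the replicate block, which changed no call, Notch4 was 0.14. When 1 array is left out the numbers are unbalanced, and the PMA difference ran from -0.39 to 0.50 for Notch1, -0.45 to 0.66 for Notch2, -0.028 to 0.25 for Notch4, -0.67 to 0.72 for Jag1 and -0.0030 to 0.19 for Hes1. For the interaction of PMA with number 1, leaving out 1 array of number 2 or 3 gave -0.25 to 0.098 for Jag1 and -0.36 to 0.018 for Hes1, with 1 to 7 probe sets called higher and 1 to 11 lower, and the intensity trend left 0 higher. Causes were not tested.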
